A study of Drosophila melanogaster with 36 samples.

Results

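The Jonah genes and the lettered trypsins of Drosophila melanogaster are 2 families of serine endopeptidase genes, and they were followed here through a time course of the larval fat body. Every gene of the count tables whose symbol begins with Jon and a digit, or joins a Greek letter from alpha to lambda to Try, was taken, which gave 16 Jonah genes and 11 trypsins, 27 of the 17610 genes listed. The tables hold fat body RNA of third-instar larvae of w1118, a common laboratory strain with a white-eye mutation, and of per0, a null mutant of the clock gene period, both in constant darkness after entrainment to a light-dark cycle. Tissue was collected every 4 h from circadian time CT0 to CT32, 9 times in all, with 2 libraries for each genotype and time, 18 for each genotype and 36 in all. Each library came from the pooled fat bodies of 5 larvae, described as of both sexes, so that neither single animals nor sexes can be separated.

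Serine endopeptidases cut proteins at internal bonds. Trypsins cut after basic residues, and the Jonah proteins resemble chymotrypsins, which favour bulky residues. Both families are known mainly as digestive enzymes that the epithelial cells of the midgut make as inactive precursors and secrete into the gut lumen, where they break down food protein. The fat body lies next to the midgut in the larva, stores lipid, glycogen and protein and secretes proteins into the hemolymph. In RNA from a pool of tissue, fewer cells of a type and less RNA per cell cannot be told apart.

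Total counts per library ran from 16513757 to 28423768, and 3 counts, taken as the detection floor, were worth 0.0935 to 0.22 CPM, counts per 1e6 scaled over the 36 libraries. Fat body markers were abundant as a sum, although not each of them in every library: the total of the 7 genes measured of that list, storage proteins and the lipoprotein apolpp among them, ran from 18944 to 516378 CPM. Testis genes summed to between 0 and 407 CPM, and whether every pool held males was not tested. The titles call the duplicates biological replicates without saying how separately they were raised, so p-values may measure only the spread between these pools. The files name the duplicates A and B, letters that no label ties to a replicate number, and "column A" and "column B" below mean those letters. One w1118 CT0 sample carries a genotype tag of per0 against its title and was kept as w1118. The library per0 CT28 B held transcripts of both genotypes: nAChRalpha7, at most 1.004 CPM in the other per0 libraries and 35.0 CPM at the median of w1118, measured 14.8 CPM in it, and Hs3st-A measured 18.3 CPM against at most 0.471 CPM in other per0 libraries. For the Jonah and trypsin genes, results that use it are given with and without it where that changes a call. Calls of other genes were not repeated without it.

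Transcripts of the digestive proteases came and went between libraries by orders of magnitude. Without Jon74E, which behaved differently and is described last, the other 26 genes summed to between 1.33 and 14444 CPM in w1118, with a median of 1526 CPM, and to between 1.63 and 25788 CPM in per0, with a median of 229.7 CPM. In w1118 the sums in column A were 568, 3567, 4642, 2.34, 2.95, 8835, 6388, 2.39 and 4.93 CPM from CT0 to CT32. The sums in column B of w1118 were 2125, 927, 2439.9, 14444, 1.33, 321, 2456, 2143 and 308 CPM. High and low libraries of w1118 occurred under both letters, and at CT12 the pair held one of each. In per0 the sums in column A were 304, 127, 20.4, 1.63, 403, 7.25, 7.6, 3.53 and 3.59 CPM. The sums in column B of per0 were 1037, 25788, 2351, 5088, 2883, 6509, 10094, 156 and 4.21 CPM. In per0 the column B library was the higher at all 9 times, against 4 of 9 times in w1118.

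**Figure D1:**
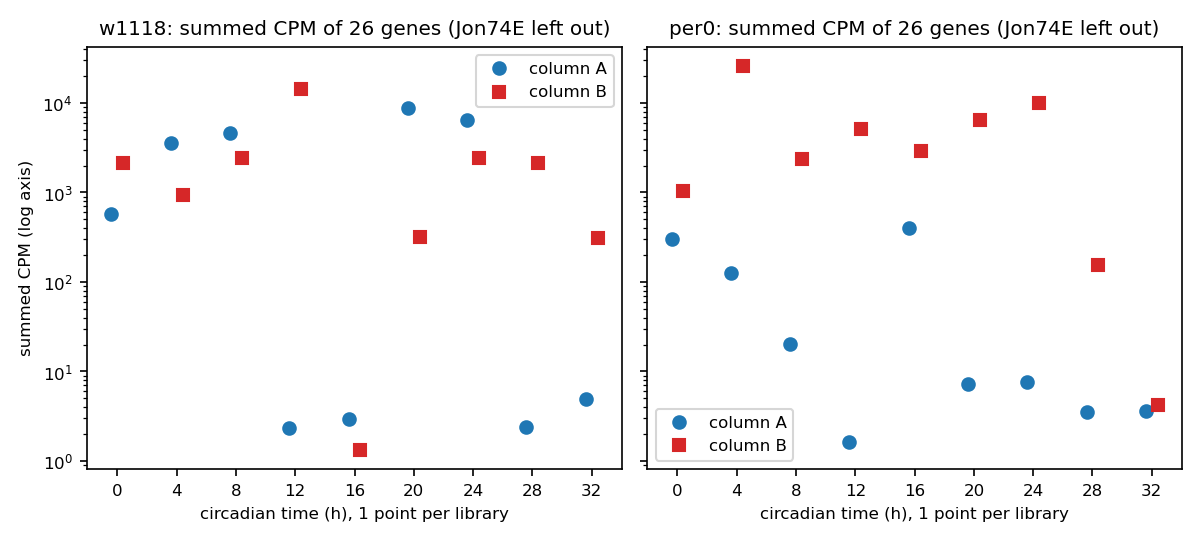
Summed CPM of the 26 genes other than Jon74E (log axis) against circadian time in hours, 1 point per library, with column A as circles and column B as squares. Column B lies above column A at all 9 times in per0 and at 4 of 9 times in w1118.

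The libraries spread over the whole range. Of the 36 libraries, 11 held under 10 CPM of these genes, 5 of w1118 and 6 of per0, and 16 held over 1000 CPM, 9 of w1118 and 7 of per0. All 7 per0 libraries over 1000 CPM were column B, and 5 of the 6 under 10 CPM were column A. In w1118, 4 column A and 5 column B libraries held over 1000 CPM. In the highest library, per0 CT4 B, the 27 genes took 2.72% of all counts (95% Wilson interval 2.716 to 2.732%, which covers counting error only, because copies made by PCR cannot be told from separate molecules).

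**Figure D2:**
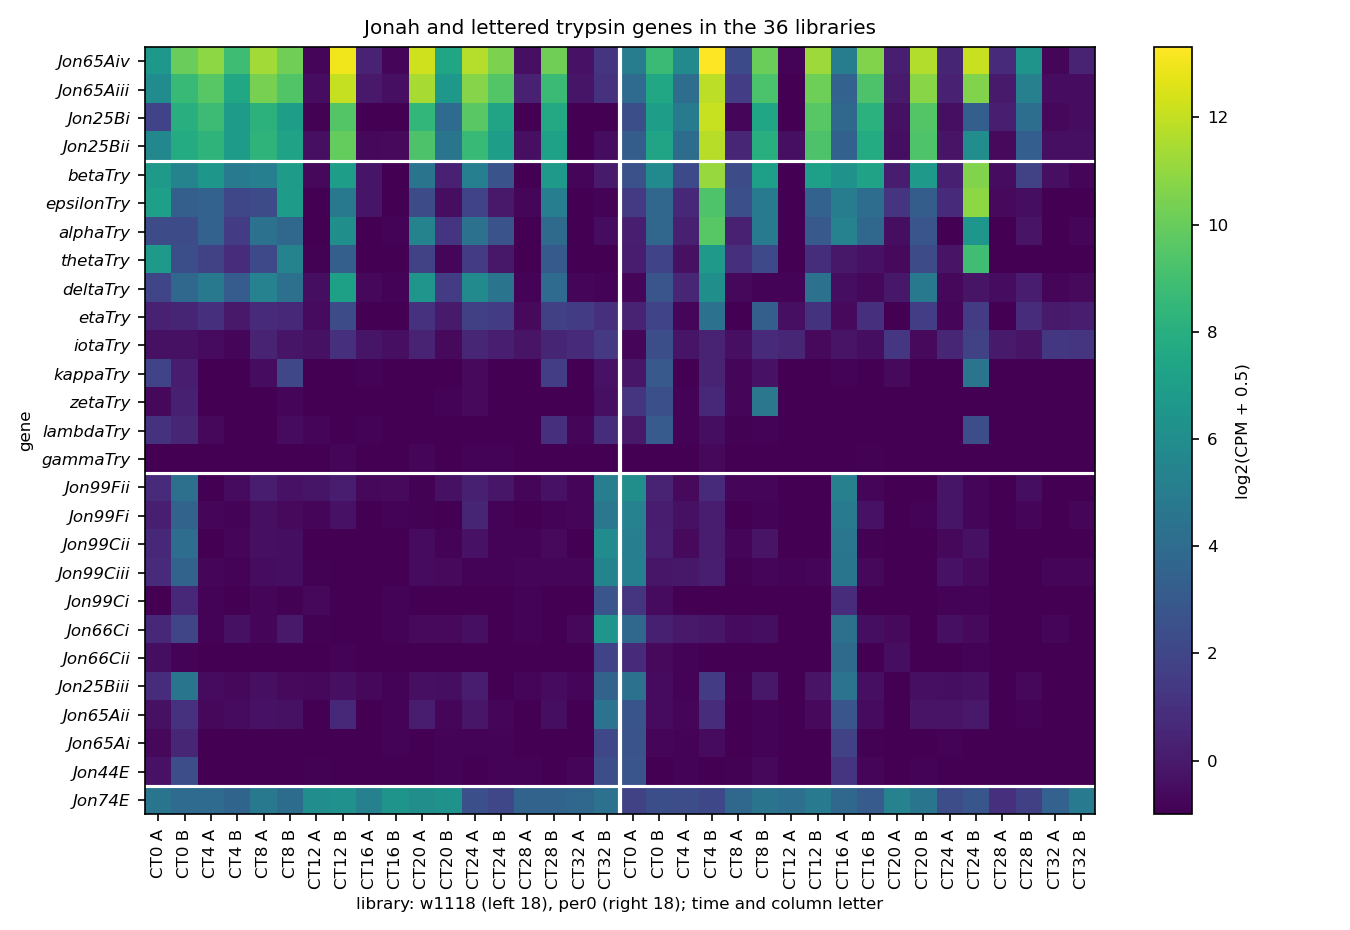
Level of the 27 genes (rows) in the 36 libraries (columns, w1118 left and per0 right, ordered by time and column letter), as log2(CPM + 0.5). The 4 abundant Jonah genes fill the top rows, the 11 other Jonah genes reach their highest values in 4 libraries, and Jon74E, in the last row, is present in every library.

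The most abundant members were 4 Jonah genes and betaTry. Per kilobase of exon, by the lengths of the Ensembl BDGP6 annotation (810 to 1397 bases over the 27 genes, all of which matched), the mean level over the 36 libraries was 1539 CPM per kb for Jon65Aiv, 729 for Jon65Aiii, 322 for Jon25Bi, 281 for Jon25Bii and 134 for betaTry. Neighbours in that order lay within the spread over libraries, which exceeded the means: Jon65Aiv alone ran from 0.0508 to 10162 CPM.

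Jon65Aiv led the families in level. In w1118 its column A libraries measured 96.7, 1893, 2587, 0.0975, 0.783, 4877, 3417, 0.249 and 0.324 CPM from CT0 to CT32. Its column B libraries of w1118 measured 1043, 458, 1163, 8199, 0.102, 175, 1429.7, 1189.8 and 1.76 CPM. Neither letter was regularly the higher in w1118, and both libraries of CT16 were near 0. In per0, column A measured 31.6, 55.5, 4.17, 0.0508, 31.9, 0.659, 0.897, 1.13 and 0.0631 CPM. Column B of per0 measured 435, 10162, 1081, 2404, 1566, 3241, 4448, 85.5 and 0.789 CPM. Each per0 column B library lay above its column A partner, although the ranges overlapped, since CT32 B was near 0 and CT4 A was not.

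Jon65Aiii, a close relative encoded near it, ran in parallel at a lower level. Its w1118 column A libraries measured 60.9, 768, 1339.5, 0.195, 0.482, 2806, 1648, 0.746 and 0.389 CPM. Its w1118 column B libraries measured 423, 187, 678, 4194, 0.256, 100.2, 702, 425 and 1.56 CPM. The w1118 libraries with high Jon65Aiv, from CT12 B and CT20 A down, were those with high Jon65Aiii. The per0 column A libraries measured 15.4, 16.8, 2.48, 0, 10.6, 0.512, 0.726, 0.533 and 0.189 CPM. The per0 column B libraries measured 184, 3782, 607, 1119, 625, 1717, 1524, 37.7 and 0.197 CPM. At CT32 the per0 pair differed by less than 1 count's worth, and at the other 8 times column B was the higher by far.

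Jon25Bi and Jon25Bii, Jonah genes that sit close together on another chromosome, followed the same libraries. Jon25Bi measured 3.13, 442, 288, 0.0325, 0, 355, 789.8, 0 and 0 CPM in column A of w1118. It measured 265, 122, 123, 702, 0, 15.3, 162, 198 and 0 CPM in column B of w1118. Jon25Bi was at or near 0 in the w1118 libraries with under 2 CPM of Jon65Aiv. In per0, Jon25Bi measured 4.82, 29, 0.0942, 0, 13.3, 0.293, 0.256, 0.667 and 0.126 CPM in column A. In column B it measured 129, 4432, 179.9, 764, 282, 726, 9.6, 17.2 and 0.197 CPM. Its level in per0 CT4 B was over all its other values, and at CT24 B it was low beside Jon65Aiii and Jon65Aiv.

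Jon25Bii measured 50.2, 315, 318, 0.26, 0.12, 635, 409, 0.249 and 0 CPM in column A of w1118. In column B of w1118 it measured 222, 114, 152, 967, 0.153, 23.4, 123, 144 and 0.207 CPM. Its high libraries were those of Jon25Bi, and in w1118 CT0 A it was the more abundant of the pair. In per0 column A it measured 8.88, 15.9, 0.973, 0.254, 10.5, 0.22, 0.342, 0.133 and 0.252 CPM. In per0 column B it measured 165, 3541, 246, 628, 226, 666, 64.2, 9.01 and 0.263 CPM. The 4 abundant Jonah genes summed to 0.511 CPM in w1118 CT16 B and to 21918 CPM in per0 CT4 B.

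The trypsins added smaller and more uneven amounts. The alpha, beta, delta, epsilon and theta genes carried most of their signal. In w1118, betaTry measured 102, 95.4, 36.2, 0.13, 0.361, 22.2, 35.2, 0 and 0.0649 CPM in column A. In column B of w1118 it measured 42.2, 27.8, 121, 128, 0, 0.741, 5.88, 106 and 0.519 CPM. No w1118 library stood far above the others for betaTry. In per0 it measured 5.36, 4.21, 4.39, 0, 81.1, 0.586, 0.683, 0.2 and 0.252 CPM in column A. In per0 column B it measured 57, 2236, 137, 132, 150.3, 108, 1524, 2.95 and 0.0657 CPM. The 3 highest libraries held 75.7% of its CPM over all 36, and CT4 B and CT24 B stood far above the others.

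epsilonTry and thetaTry peaked in a single library, per0 CT24 B, with 1915 and 484 CPM. Their next values were 672 and 103 CPM in per0 CT4 B. In w1118 CT0 A epsilonTry, at 133 CPM, exceeded every other member, and thetaTry measured 101 CPM there. alphaTry reached 759 CPM in per0 CT4 B and 91.3 CPM in the next library, per0 CT24 B. deltaTry was highest in w1118, at 139 CPM in CT12 B and 86.8 CPM in CT20 A. Different trypsins were thus highest in different libraries.

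The remaining trypsins were scarce. etaTry reached 20.8 CPM in per0 CT4 B and 9.68 CPM in per0 CT8 B. zetaTry reached 25.3 CPM in per0 CT8 B, kappaTry 22.5 CPM in per0 CT24 B and lambdaTry 8.23 CPM in per0 CT0 B. kappaTry and lambdaTry, neighbouring genes, were each at 0 in 20 libraries, and zetaTry was at 0 in 24. gammaTry never exceeded 3 counts in any library and was not tested. gammaTry, deltaTry, CG30025 and CG30031 are near-identical copies, so the split of reads between them is uncertain. CG30025 and CG30031 measured at most 1.61 and 0.202 CPM.

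The other 11 Jonah genes were scarce or not detectable in most libraries, and all but Jon66Cii were over the floor together in 4. Jon25Biii was over the floor in 22 libraries, and Jon65Aii and Jon99Fii in 18 each. The grouping of the 11 genes was made after their values were seen and carries no test. Summed, the 11 genes measured 93.4 CPM in w1118 CT0 B, 299 CPM in w1118 CT32 B, 231 CPM in per0 CT0 A and 181 CPM in per0 CT16 A. In the other 32 libraries the sum stayed at or under 7.14 CPM. They are Jon25Biii, Jon44E, Jon65Ai, Jon65Aii, Jon66Ci, Jon66Cii, Jon99Ci, Jon99Cii, Jon99Ciii, Jon99Fi and Jon99Fii.

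Jon99Fii measured 19.1, 34.6, 65.9 and 36.7 CPM in those 4 libraries, in the order w1118 CT0 B, w1118 CT32 B, per0 CT0 A and per0 CT16 A, and at most 1.15 CPM in the other 32. In the same order its neighbour Jon99Fi measured 11.2, 24.8, 39.9 and 29.97 CPM, with at most 0.898 CPM elsewhere. Both were highest in per0 CT0 A. Jon99Cii measured 17.0, 58.7, 34.7 and 24.1 CPM in those libraries, with at most 1.03 CPM elsewhere. Jon99Ciii, beside it, measured 11.3, 44.0, 35.2 and 23.0 CPM, with at most 1.15 CPM elsewhere. These 2 were highest in w1118 CT32 B.

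Jon66Ci varied more among the 4 libraries, with 3.54, 86.3, 13.1 and 18.8 CPM, and at most 0.993 CPM elsewhere. Its neighbour Jon66Cii measured 0.0422, 3.11, 1.14 and 15.05 CPM, so the pair was not highest in the same library. Jon25Biii measured 23.1, 11.2, 20.7 and 21.2 CPM and reached 2.35 CPM in another library, per0 CT4 B. Jon65Aii reached 21.5 CPM in w1118 CT32 B, while Jon44E, Jon65Ai and Jon99Ci stayed at or under 6.30, 5.83 and 6.22 CPM in every library. The neighbouring genes of this group resemble each other in sequence, and counts of Jon99Ci, Jon99Cii and Jon99Ciii, of Jon99Fi and Jon99Fii, and of Jon66Ci and Jon66Cii may be split between copies.

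The balance between both Jonah groups differed as much as their levels. The 4 abundant genes summed to 0.0118 times the 11 others in w1118 CT32 B, 0.263 times in per0 CT0 A and 0.366 times in per0 CT16 A. In per0 CT20 B the ratio was 8983 and in w1118 CT20 A it was 6224. Position in the genome did not sort the groups: Jon25Bii belongs to the abundant group and its next gene Jon25Biii to the other, and so do Jon65Aiii and its next gene Jon65Aii.

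**Figure D3:**
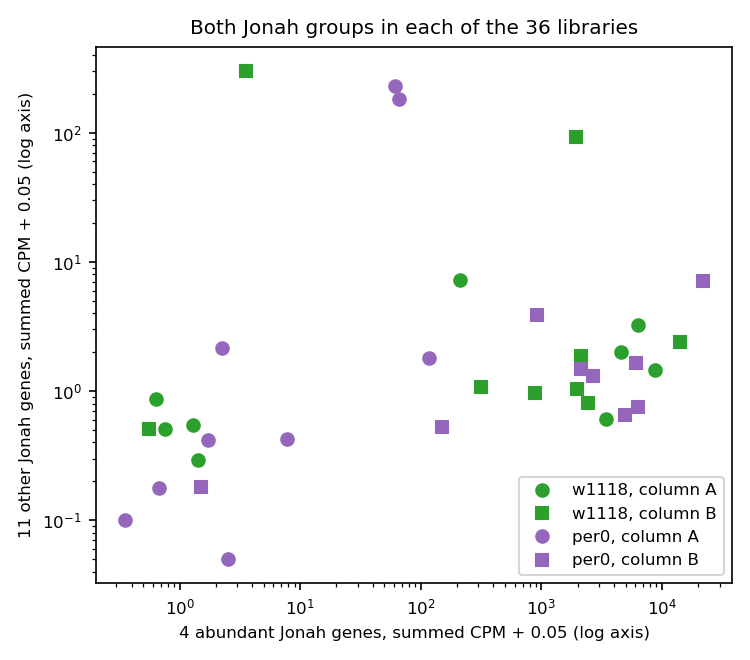
Summed CPM of the 4 abundant Jonah genes (horizontal) against that of the 11 other Jonah genes (vertical) in the 36 libraries, both plus 0.05 and on log axes, coloured by genotype. The 4 libraries at the top hold 93.4 to 299 CPM of the 11 genes, and the ratio of the groups runs from 0.0118 to 8983.

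The duplicate libraries of a time show how far these levels vary without a change of condition. On the log2(CPM + 0.5) scale, the median absolute difference between both libraries of a time, over 18 pairs, was 5.196 for Jon65Aiv, 5.00 for Jon65Aiii, 4.42 for Jon25Bi and 4.25 for Jon25Bii. For Jon74E it was 0.59. Scarce members also had small differences, since values at or near 0 differ little on this scale: it was 0.13 for Jon44E and 0.64 for iotaTry. The largest difference of Jon65Aiv within a pair was 13.74, at CT12 of w1118.

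Columns A and B were then compared over the 9 times of each genotype by edgeR's quasi-likelihood test with time as a factor, with Benjamini-Hochberg adjustment over all genes and calls at an adjusted p under 0.05, as in all tests below. This compares columns of the tables, not conditions. In per0, 4 of 26 members tested were higher in column B, where 0.751% of the 10926 genes tested were called higher in B (0.00915% lower and 0.76% in either direction). The median difference was 2.06 over the members and -0.02 over all genes, B minus A in log2. In w1118, 0 of 24 members passed, and the percent called over 11650 genes was 0; by unadjusted p under 0.05, 1 member (Jon65Ai) and 288 genes in all passed. DESeq2 and limma-voom also called 0 members in w1118.

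The 4 called members were the abundant Jonah genes. In per0, Jon65Aiv was 8.20 ± 1.38 (log2, SE) higher in column B, with an edgeR adjusted p of 0.0293, and was higher at 9 of 9 times. Jon65Aiii was 7.93 ± 1.37 higher (edgeR adjusted p = 0.0341). Jon25Bii was 7.10 ± 1.12 higher (edgeR adjusted p = 0.0235). Jon25Bi was 6.95 ± 1.25 higher (edgeR adjusted p = 0.0369). All 4 were higher in B at 9 of 9 per0 times in CPM. At CT32, though, the counts in A and B were 3 and 3 for Jon65Aiii and 4 and 4 for Jon25Bii. For Jon25Bi they were 2 and 3. In w1118 the differences of the 4 genes were 0.43 ± 2.19, 0.53 ± 1.90, 0.48 ± 1.87 and 0.64 ± 3.12, in the order of Jon65Aiv, Jon65Aiii, Jon25Bii and Jon25Bi.

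Of the trypsins, etaTry was also higher in B at 9 of 9 per0 times, by 4.35 ± 1.05 in log2, and did not pass (edgeR adjusted p = 0.126). betaTry and alphaTry differed by 6.01 ± 1.52 and 5.87 ± 1.45 without passing (edgeR adjusted p = 0.141 and 0.129). In all, 17 of 26 members had a positive difference in per0. The members with negative ones, from -1.18 ± 2.28 for Jon99Cii to -3.40 ± 1.72 for Jon66Cii, all belong to the 11 other Jonah genes, and none passed by edgeR. limma-voom called 5 of these, Jon66Ci, Jon99Cii, Jon99Ciii, Jon99Fi and Jon99Fii, among 13 members in all.

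**Figure D4:**
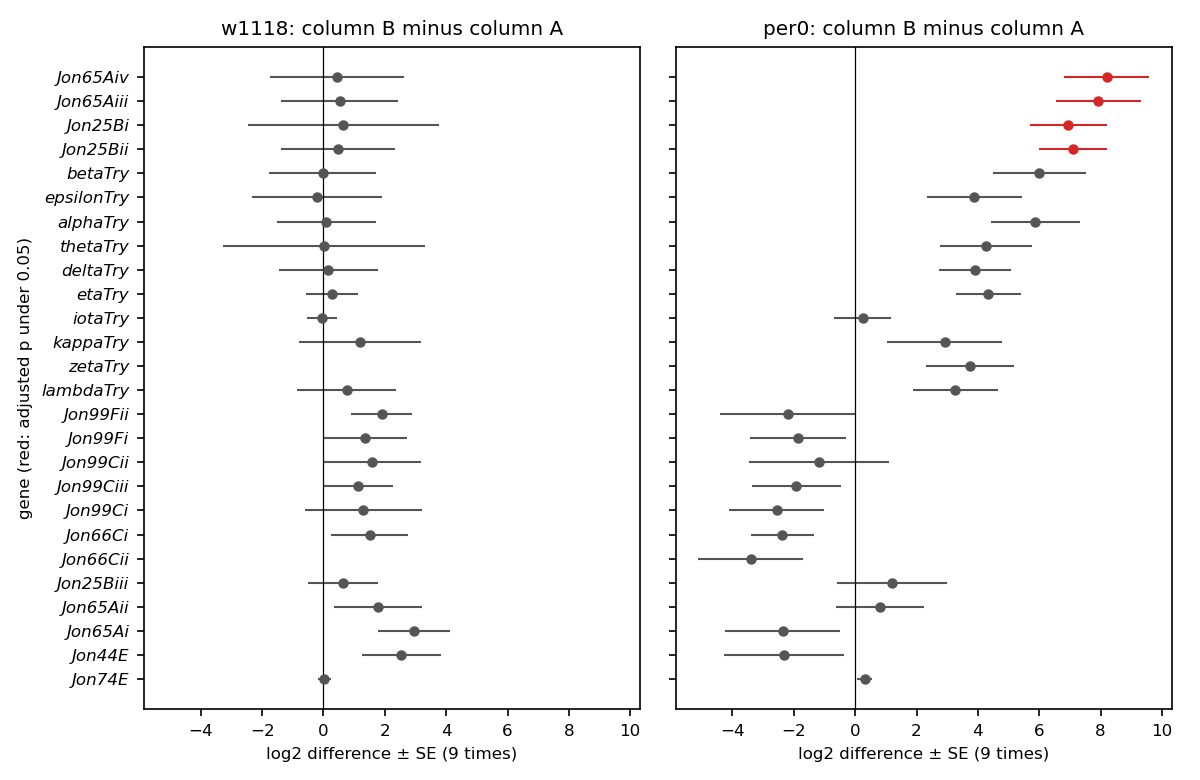
Column B minus column A in log2, with SE, for each tested member in w1118 (left) and per0 (right), from fits over 9 times. The 4 red points, all in per0, are Jon65Aiv, Jon65Aiii, Jon25Bi and Jon25Bii, which passed an edgeR adjusted p under 0.05.

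The difference between genotypes in that column effect was itself tested and did not pass for any member: 0 of 26 by edgeR, against 0.499% of 12020 genes, with 8 members at an unadjusted p under 0.05, while DESeq2 called 6 and limma-voom 5. Jon65Aiv gave 7.77 ± 2.84 in log2 (edgeR adjusted p = 0.415) and Jon65Aiii 7.40 ± 2.55 (edgeR adjusted p = 0.347). Within per0, with any single library left out, Jon65Aiv stayed 7.53 to 8.92 higher in column B in log2, and Jon65Aiii 7.33 to 8.55. Jon25Bii stayed 6.57 to 7.67 higher and Jon25Bi 6.30 to 7.55. Whether these genes passed the threshold depended on which library was left out. Without either library of CT4 or of CT8, 0 members were called. Without the mixed library per0 CT28 B, 2 were called (Jon25Bii and Jon65Aiv). Without either library of CT20 only Jon25Bii passed, without either of CT24 only Jon65Aiv, and without either of CT32 only Jon25Bii and Jon65Aiii.

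Among other gut transcripts, 1 gene in each of 2 lists differed between the same columns. yip7, another chymotrypsin-like protease, was 7.92 ± 1.40 higher in log2 in column B of per0 (edgeR adjusted p = 0.0354), and measured 0 to 27.5 CPM in A and 0.394 to 4875 CPM in B. It was the 1 gene called of 14 tested in the list of other digestive serine proteases. mex1, a gene named for its expression in the midgut, was 4.91 ± 0.90 higher (edgeR adjusted p = 0.0491), the 1 gene called of 6 tested among midgut identity and absorption genes. Calls of list genes, here and below, were not examined under other settings or with libraries left out. Of 11 tested midgut enzymes and secreted proteins none was called, and 3 had an unadjusted p under 0.05. LysS, a digestive lysozyme that was not called, ran from 0.0508 to 6.65 CPM in column A and from 0.131 to 1565 CPM in column B of per0.

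Summed over lists, the other digestive proteases ran from 1.27 to 83.3 CPM in column A and from 2.04 to 4896 CPM in column B of per0. The sum was higher in B at 9 of 9 times. Of it, yip7 alone made 4875 of 4896 CPM in CT24 B and 2278 of 2279 CPM in CT20 B. Over the 14 genes tested, the median difference was 1.11 in log2, B minus A. The midgut enzymes and secreted proteins ran from 3.78 to 39.9 CPM in A and from 6.98 to 3373 CPM in B, higher in B at 8 of 9 times. Enteroendocrine peptides, hormones of the gut, summed to at most 9.65 CPM in any library, and Peritrophin-15b and Npc2e were at 0 throughout. The fat body list was higher in A at 8 of 9 per0 times and at 7 of 9 w1118 times. In per0 its sum ran from 24809 to 498788 CPM in A and from 18944 to 516378 CPM in B. In column B of per0, 1 of 6 salivary gland genes was called higher, Sgs8, a glue protein gene whose highest value, 1313 CPM, was in the mixed library per0 CT28 B, and none of 8 muscle, 6 Malpighian tubule, 3 hindgut, 6 hemocyte or 7 testis genes was called. At an unadjusted p under 0.05, 4 of the hemocyte genes (median over the list -0.71 in log2), 3 of the muscle genes (0.70) and 3 of the salivary gland genes (5.39) differed between the columns. The part of other tissues in the protease levels was not tested.

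The 10 genes outside the families whose level ran most like the mean of the members, among 9266 genes of at least 1 CPM, included mex1 (Spearman's rho 0.86), the lysozymes LysC and LysD (both 0.82), the maltase Mal-A3 (0.83) and Npc2d (0.83), of a family of sterol-binding proteins. The others were CG6041 (0.87), Kaz-m1 (0.86), sphe (0.85), Ag5r2 (0.84) and CG34176 (0.83). These are descriptions over 36 libraries that share their depth and their mixture of tissues.

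The time course was examined next, since the study asks about daily and shorter rhythms with and without the clock. A factor of the 9 times called 4 of 24 members in w1118, where 12.2% of 11650 genes were called, and 4 of 26 in per0, where 9.71% of 10926 were called. In both genotypes the 4 were Jon74E, Jon66Ci, Jon99Ciii and Jon99Fi. The median range between the highest and lowest fitted time was 9.14 in log2 over the members in w1118, against 1.72 over all genes, and 11.04 against 1.67 in per0. Such ranges take in the spread between duplicates, a median of 5.196 for Jon65Aiv, and times with no counts. Jon25Bi, at 0 in both w1118 libraries of CT16, had a range of 16.5 in w1118 without passing (edgeR adjusted p = 0.392).

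The calls of Jon66Ci, Jon99Ciii and Jon99Fi in w1118 had edgeR adjusted p-values of 0.0174, 0.0168 and 0.0474. Their values over 1 CPM in w1118 lay in CT0 B and CT32 B, but for Jon99Ciii in CT0 A as well. In per0 the adjusted p-values by edgeR were 0.0490, 0.0464 and 0.0307 in the same order, with all values over 1 CPM in CT0 A and CT16 A. With limma-voom, and under a stricter filter on low counts, Jon74E alone was called in each genotype. In per0, Jon74E alone was called without CT0 A, and likewise without any 1 library of CT4, CT8, CT20, CT24 or CT32. Without the mixed per0 CT28 B, or without either library of CT12, Jon74E and Jon99Fi were called. In w1118 the call of Jon99Fi was lost in 15 of 18 omissions of a single library, all but those of CT24 and CT32 A, with adjusted p-values up to 0.0876. Jon66Ci was lost without CT32 B (adjusted p = 0.145), and without CT32 A 7 members were called. The abundant genes did not pass: Jon65Aiv had an edgeR adjusted p of 0.286 in w1118 and 0.631 in per0.

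Rhythms of 24 h and of 12 h were each tested as a cosine and sine pair, both periods together in 1 model per genotype. At 24 h, 1 of 24 members was called in w1118 (Jon74E), where 0.618% of genes were, and 0 of 26 in per0, where 0 genes were called by edgeR, 1148 genes and 4 members had an unadjusted p under 0.05, and DESeq2 called 1 member. At 12 h, 0 members and 0% of genes were called in either genotype by edgeR. At an unadjusted p under 0.05, 6 members stood out in w1118 and 2 in per0, and DESeq2 called 0 members in w1118 and 1 in per0.

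CT24, CT28 and CT32 were also compared with CT0, CT4 and CT8, as second day against first, with the clock phase as a factor. In per0 the 26 genes summed to a lowest, median and highest of 20.4, 670 and 25788 CPM on the first day and 3.53, 5.90 and 10094 CPM on the second. The ranges overlapped, through CT24 B and the mixed CT28 B. For w1118 the corresponding sums were 568, 2282 and 4642 CPM on the first day and 2.39, 1226 and 6388 CPM on the second.

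In per0, 4 of 22 members tested were lower on the second day, where 7.64% of 10552 genes were called lower, 8.97% higher and 16.6% in either direction. Jon99Cii fell by 6.26 ± 1.19 in log2 (edgeR adjusted p = 0.00821), Jon66Ci by 4.52 ± 1.01 (edgeR adjusted p = 0.0154) and Jon25Biii by 4.79 ± 1.42 (edgeR adjusted p = 0.0451). The fitted value was lower on the second day for 21 of 22 members, with a median of -4.71 over the members and -0.11 over all genes. zetaTry also passed (edgeR adjusted p = 0.0481), a call that held in 2 of 12 single omissions: its counts were 52 and 150 at CT0, 1 and 19 at CT4 and 3 and 588 at CT8, in columns A and B, and 0 in all 6 libraries of the second day. limma-voom called none of the 4, and Jon25Biii held in 3 of 12 single omissions. Among these 12 libraries the 3 Jonah genes had been highest in CT0 A. Without that library no member was called, and without CT4 B, CT8 B, CT24 A or CT28 A 2 were (Jon66Ci and Jon99Cii). Without CT0 B 8 were called, and without the mixed CT28 B 7 were.

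Jon65Aiv had a change of -6.30 ± 4.42 in per0 (edgeR adjusted p = 0.384), and all 4 abundant genes missed the threshold. Without CT24 B they were called, with alphaTry and betaTry. In the same comparison all 7 fat body genes rose, among them the larval serum proteins, and their sum ran from 18944 to 69417 CPM on the first day and from 210511 to 516378 CPM on the second. Of the other digestive proteases 2 of 12 were lower (CG11911 and CG16749), and of the midgut enzymes 0 of 11. The part of the fat body's own transcripts in the fall of the proteases' share of counts was not tested.

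In w1118, 1 of 24 members passed, where 4.57% of 11394 genes were called higher, 10.5% lower and 15.1% in either direction. It was iotaTry, which rose by 1.76 ± 0.42 in log2 (edgeR adjusted p = 0.0209). On the first day, from CT0 to CT8, column A held 0.267, 0.172 and 0.815 CPM of it and column B 0.295, 0.0831 and 0.386 CPM. On the second day, from CT24 to CT32, column A held 0.948, 0.348 and 1.10 CPM and column B 0.653, 0.894 and 2.07 CPM. The days overlapped, and first-day levels were near the detection floor. The call was lost without any filter, under a stricter one, and without CT0 A, CT0 B, CT24 A or CT32 B. Fitted changes were negative for 14 of 24 members.

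Between genotypes, averaged over times, 1 of 26 members passed, Jon74E, where 42.4% of 12020 genes were called, 19.4% higher and 23% lower in per0. The median change over the members was 0.00 in log2, against -0.16 over all genes. The abundant genes had wide errors: Jon65Aiv differed by -0.71 ± 1.37 in log2, per0 minus w1118 (edgeR adjusted p = 0.684), and Jon25Bi by -0.13 ± 1.57 (edgeR adjusted p = 0.954). With this spread a difference of several fold in these genes was not detectable. deltaTry came nearest of the trypsins, at -2.62 ± 1.10 (edgeR adjusted p = 0.0554), and was called by DESeq2 and without any of 9 single libraries: w1118 CT4 A, CT4 B, CT12 A, CT16 B, CT20 B and CT28 A, and per0 CT0 B, CT4 B and CT20 B.

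Jon74E differed from most other members in where it was found. It was counted in all 36 libraries, with at least 21 counts, and was 1 of 4 members with a count in each. It was present where most others were nearly absent. In the 11 libraries with under 10 CPM of the other members it measured 1.40 to 85.1 CPM, with a median of 18.3 CPM. Its highest value fell in w1118 CT16 B, where the other members summed to 1.33 CPM. iotaTry was also over the detection floor in each of these 11 libraries, at 0.256 to 2.02 CPM. Jon74E lies away from the other members in the annotation, between Nedd4 and CG7542.

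In w1118, Jon74E measured 23.3, 15.3, 27.1, 63.1, 37.2, 67.5, 5.24, 11.1 and 13.6 CPM in column A from CT0 to CT32. It measured 15.5, 11.7, 16.2, 75.6, 85.1, 80.7, 3.67, 11.5 and 20.3 CPM in column B. The 6 libraries of CT12, CT16 and CT20 lay between 37.2 and 85.1 CPM, above the 12 of other times, which lay between 3.67 and 27.1 CPM. In per0, column A measured 3.05, 4.75, 13.5, 18.3, 13.8, 40.5, 4.7, 1.4 and 11 CPM. Column B measured 4.99, 3.73, 22.7, 28.3, 8.08, 23, 6.51, 2.82 and 28.5 CPM. The per0 libraries were highest at CT20 A and lowest at CT28, and their times overlapped more.

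**Figure D5:**
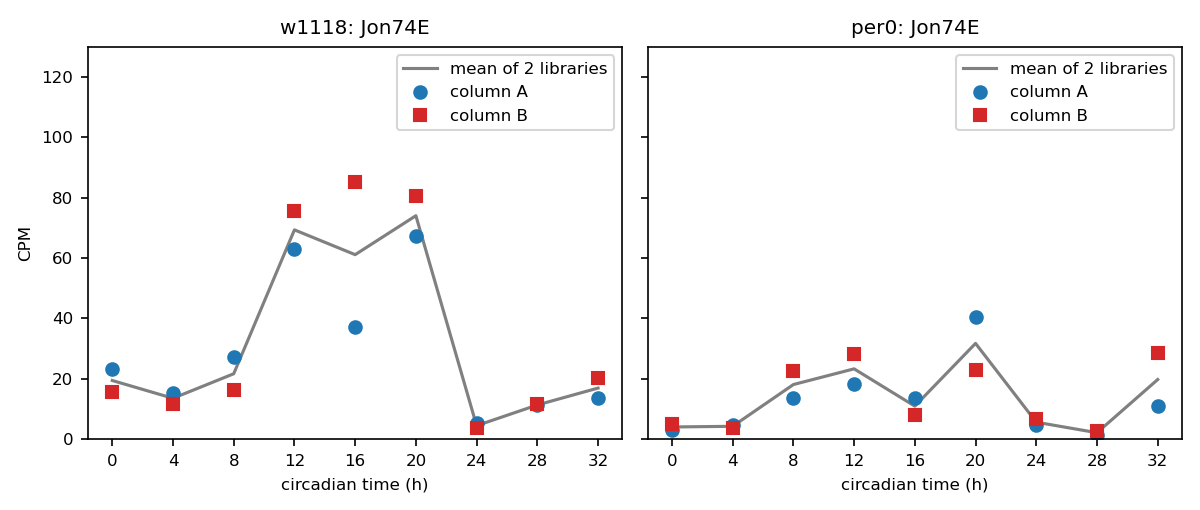
Jon74E in CPM against circadian time in hours in w1118 (left) and per0 (right), 1 point per library, with the line through the mean of both libraries. The w1118 libraries of CT12 to CT20 lie between 37.2 and 85.1 CPM, above all other w1118 libraries.

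Jon74E was lower in per0 by 1.3 ± 0.24 in log2 over all times (edgeR adjusted p = 9.13e-05), and at 6 of 9 times both per0 libraries lay below both of w1118. Leaving out any 1 library gave changes between -1.41 and -1.13, all called. It differed among times in w1118, by 3.97 in log2 between highest and lowest (edgeR adjusted p = 0.00176), and in per0, by 3.85 (edgeR adjusted p = 0.0102). CT12, CT16 and CT20, where Jon74E was highest in w1118, were sampled in 1 cycle only. Whether that rise recurs daily was not tested. The 24 h component of Jon74E in w1118 had a peak-to-trough size of 2.98 in log2 (edgeR adjusted p = 0.0346). That call was lost without CT4 B, CT12 B, CT16 B or CT28 A, with adjusted p-values up to 0.187. In per0 the size was 2.41 (edgeR adjusted p = 0.197), and whether the genotypes differ in this component was not tested.

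At 12 h the size of Jon74E was 0.55 in w1118 (edgeR adjusted p = 0.767) and 2.16 in per0 (edgeR adjusted p = 0.179). Its second-day change was -0.84 ± 0.33 in w1118 (edgeR adjusted p = 0.123) and -0.13 ± 0.34 in per0 (edgeR adjusted p = 0.837). Column B minus column A was 0.03 ± 0.20 in w1118 and 0.31 ± 0.24 in per0 (edgeR adjusted p = 0.989 and 0.652). Markers of the fat body itself and of other tissues also differed between genotypes, beside 19.4% of all genes called higher and 23% lower. In per0, 4 of 6 hemocyte markers were higher and 1 lower, 5 of 7 fat body markers were lower and 3 of 6 Malpighian tubule markers were higher. Of 6 enteroendocrine peptides 3 were lower, Tk, NPF and Mip. Their medians over all libraries were 0.130, 0 and 0.033 CPM, at or near the detection floor. Fewer were called among muscle (1 of 8), midgut identity (1 of 7), hindgut (1 of 3), midgut enzyme (2 of 12), other protease (0 of 14), salivary gland (0 of 6) and testis genes (0 of 7). The part of these tissues in the level of Jon74E was not tested.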

How the data were processed

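RNA-seq libraries were made from total RNA with SMART-Seq v4, a full-length PCR kit without strand or molecular identifiers, per the labels' protocols. The authors deposited raw counts per gene, 1 table per genotype. The submitters' processing notes name STAR 2.7.9a, featureCounts, DESeq2 1.30.1 and edgeR, without saying what each did. The genome build was not given in the sources used here. Without strand, reads of overlapping genes cannot be told apart. The authors' normalized tables were not used.

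Counts were analysed with edgeR 4.0.16 (R 4.3.3): TMM scaling, a filterByExpr filter (minimum count 10, groups of 1 genotype and time) and its quasi-likelihood F test over all genes, with Benjamini-Hochberg adjustment. Of the 27 members, 22 to 26 passed the filter, depending on the comparison. CPM was scaled by TMM over 36 libraries. Alternatives were RLE scaling, no filter, a stricter filter (1 CPM), robust fitting, DESeq2 1.42.0, limma-voom 3.58.1, the column letter as a block, omission of the mixed library and of each library in turn. A library left alone at its time was assumed to vary like the others. The scripts were tested on simulated counts. Members and the 11 marker lists (98 genes, 95 in the tables) were chosen with earlier results of these data known. All members may be named, as may up to 4 genes of highest mean CPM per list, called genes and the 10 genes most like the members; genes singled out beyond this, such as those of the mixed library, were chosen after their values were seen.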

Additional observations from a re-analysis of the deposited data

How the results depend on the processing

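For members called between genotypes, days or columns, no change reversed direction under any alternative run. Ranges over times and rhythm sizes have no sign, so their direction could not be examined in this way. Counts of members called moved as follows. Between genotypes (1 called), DESeq2 gave 2, the letter as replicate block 2 (both adding deltaTry) and leaving out single libraries 1 to 2. For any time in w1118 (4 called), the stricter filter, limma-voom and the block gave 1 each, DESeq2 13 and single omissions 3 to 7; in per0 (4 called), the same 3 gave 1 each, DESeq2 11, omission of the mixed library 2 and single omissions 1 to 5. For the 24 h component, the block gave 0 in w1118 (1 called; Jon74E at an edgeR adjusted p of 0.0572), single omissions 0 to 1, and DESeq2 1 in per0 (0 called). For the 12 h component in per0 (0 called), DESeq2 gave 1. For the second day in w1118 (1 called), no filter and the stricter filter gave 0, DESeq2 3 and single omissions 0 to 3; in per0 (4 called), the stricter filter gave 1, DESeq2 16, limma-voom 0, omission of the mixed library 7 and single omissions 0 to 8. For columns in per0 (4 called), DESeq2 gave 8, limma-voom 13, omission of the mixed library 2 and single omissions 0 to 4. For the difference of columns between genotypes (0 called), DESeq2 gave 6 and limma-voom 5. The letters were not treated as pairing libraries, since no label says so and the correlations of their deviations, over 36 pairs of times, ran from -0.57 to 0.75 in w1118 (10 over 0.1) and from -0.28 to 0.51 in per0 (17 over 0.1). The cause of these moves was not tested. Summed CPM under RLE scaling was 0.900 to 1.12 times, and unscaled 0.634 to 1.33 times, the value given. Members with few counts outside 1 or 2 libraries have no stable fold change, whatever the tool.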
